A study of Mus musculus with 6 samples.

Results

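The mRNAs of 35 chromatin remodelling genes outside SWI/SNF were followed in blood stem and progenitor cells of mice with and without BRM. The genes were chosen by name. They comprise 7 genes of the ISWI family and its complexes, the 9 CHD ATPases, 10 further subunits of the NuRD complex, 5 genes of the INO80 family and 4 other SNF2-type ATPases. All 35 were found among the 55487 genes in the count files, and 34 were among the 15691 genes with enough reads for testing. BRM is a SWI/SNF motor protein, and its gene is now named Smarca2. The BrmKO libraries came from the marrow of 3 Brm-/- mice, and the WT libraries came from that of 3 wild-type mice, both on a background that the labels give as C56Bl/6. The sources used here do not give the structure of the Brm allele or the age of the mice. The cells were LSK cells, which carry c-KIT and SCA1 and lack the antigens of mature blood lineages, sorted from flushed femurs and tibiae.

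Chromatin remodellers use ATP to slide, space, evict or exchange nucleosomes, and the main motors of their families are of the SNF2 type. RUVBL1 and RUVBL2 are not SNF2-type motors but ring-forming ATPases within INO80-family complexes. ISWI enzymes space nucleosomes evenly, CHD enzymes carry paired chromodomains, NuRD couples a CHD motor to histone deacetylases, and INO80-family complexes handle the histone variant H2A.Z. In mice, deletion of Smarca5 or of Chd4 in blood-forming cells is known to disturb stem and progenitor cells.

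Reads in genes numbered 28.01 to 36.46 M per library. Levels are counts per M reads (CPM) on TMM-scaled library sizes, or, where genes are set against each other, transcripts per M (TPM), which also divide by the summed exon length. Differences are log2 fold changes of BrmKO over WT ± SE, with edgeR's quasi-likelihood test. The test reports no SE, so the SE and the 95% intervals were derived from its F statistic. Adjusted p-values follow Benjamini and Hochberg across the 15691 genes, and 0.05 is the threshold. Smarca2 had 26.9, 26.5 and 27.9 CPM in BrmKO replicates 1 to 3 and 174, 213 and 150 CPM in WT replicates 1 to 3, a log2 fold change of -2.72 ± 0.13 (edgeR, adjusted p = 2.97e-05). Every BrmKO library was below every WT library. The gate markers and stem and progenitor genes summed to 3365 to 3440 CPM in BrmKO and 3192 to 3443 CPM in WT, while 7 mature lineage antigens summed to 16 to 19.4 CPM in BrmKO and 20.2 to 21.4 CPM in WT, with Cd3e at 0 in all 6 libraries.

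Counts were compared between 2 libraries at a time by a chi-squared statistic over its degrees of freedom, which grows as libraries differ more. It was 20.5 between BrmKO replicate 3 and WT replicate 3, and 32 to 53.1 between either of them and the other 4 libraries. Among the other 4 it was 14.3 to 33.1. There, WT replicate 2 was nearer to BrmKO replicate 1 (20.1) than to BrmKO replicate 2 (25.5). The cause was not tested. The libraries numbered 3 also stood apart for the remodeller genes in both genotypes. BrmKO replicate 3 was the lowest of the 6 libraries for 10 of the 34 tested genes (16.7% of all genes had their lowest value there), and WT replicate 3 was the lowest for 12 (19.6% of all genes). The median deviation of the 34 genes from their mean over the 6 libraries was -0.06 on the log2 scale in BrmKO replicate 3 and -0.13 in WT replicate 3, against 0.04 to 0.07 in the other 4. Reads outside any gene were 9.29% of the total in BrmKO replicate 3 and 8.41% in WT replicate 3, and 5.79% to 6.61% in the other 4; whether this bears on the levels was not tested.

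**Figure D1:**
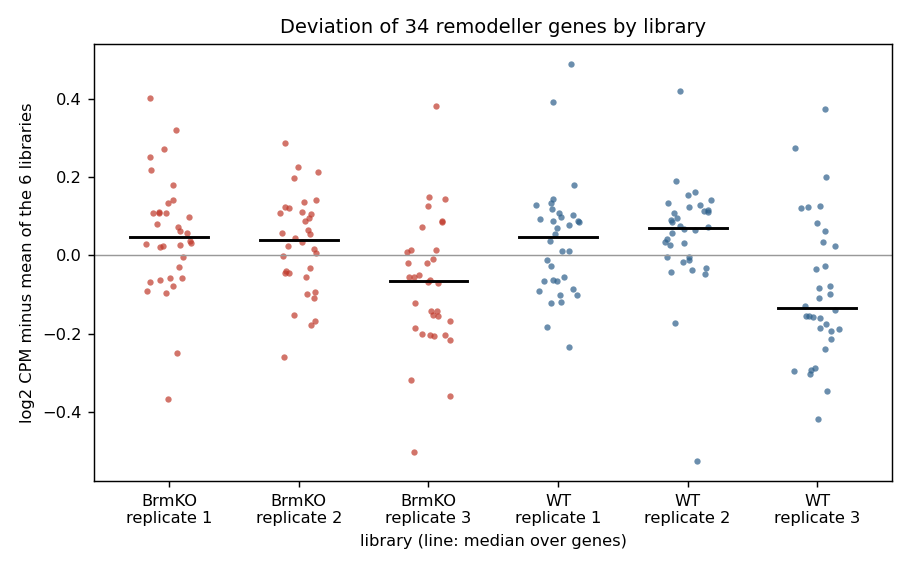
Deviation of each of the 34 tested genes from its mean log2 CPM over the 6 libraries, 1 point per gene and 1 column per library, BrmKO left of WT, with the median as a line. The medians of BrmKO replicate 3 and WT replicate 3 lie below 0, at -0.06 in BrmKO and -0.13 in WT.

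In these cells most of the NuRD subunits and the ring-forming ATPases RUVBL1 and RUVBL2 had the highest levels of the 35 genes, and several large ATPases had the lowest. The median over the 35 genes was 41.9 TPM in BrmKO and 42.8 TPM in WT, against a median of 17.9 TPM over all genes tested in WT. Of the 35, 24 lay above that median. Rbbp7, a histone-binding subunit of NuRD and other complexes, led with 695 ± 64.9 TPM in BrmKO and 680 ± 45.1 TPM in WT (SD, n = 3 each). Mta2, a NuRD scaffold, followed with 433 ± 40.2 TPM in BrmKO and 442 ± 33.7 TPM in WT. The libraries' levels of Rbbp7 and Mta2 did not overlap. Chd5, a CHD ATPase best known from neurons, was lowest with 0.0709 ± 0.0066 TPM in BrmKO and 0.0256 ± 0.0443 TPM in WT. Ordered by WT level, 9 of the 34 steps from a gene to the next lower one were free of overlap between libraries, and 25 were not. The steps free of overlap followed Rbbp7, Mbd3, Rbbp4, Gatad2a, Atrx, Chd6, Chd8, Srcap and Smarca1. The order depends on the length used. With the longest transcript in place of all exons, the WT levels of Baz1b, Atrx, Smarcad1 and Baz2b were over 1.5 times higher, at 69.1, 55, 50.5 and 38.8 TPM, against 43.9, 34.8, 26.2 and 23.3 TPM. Rbbp4 then stood at rank 3 in place of 7, and Ruvbl1 at rank 6 in place of 3.

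**Figure D2:**
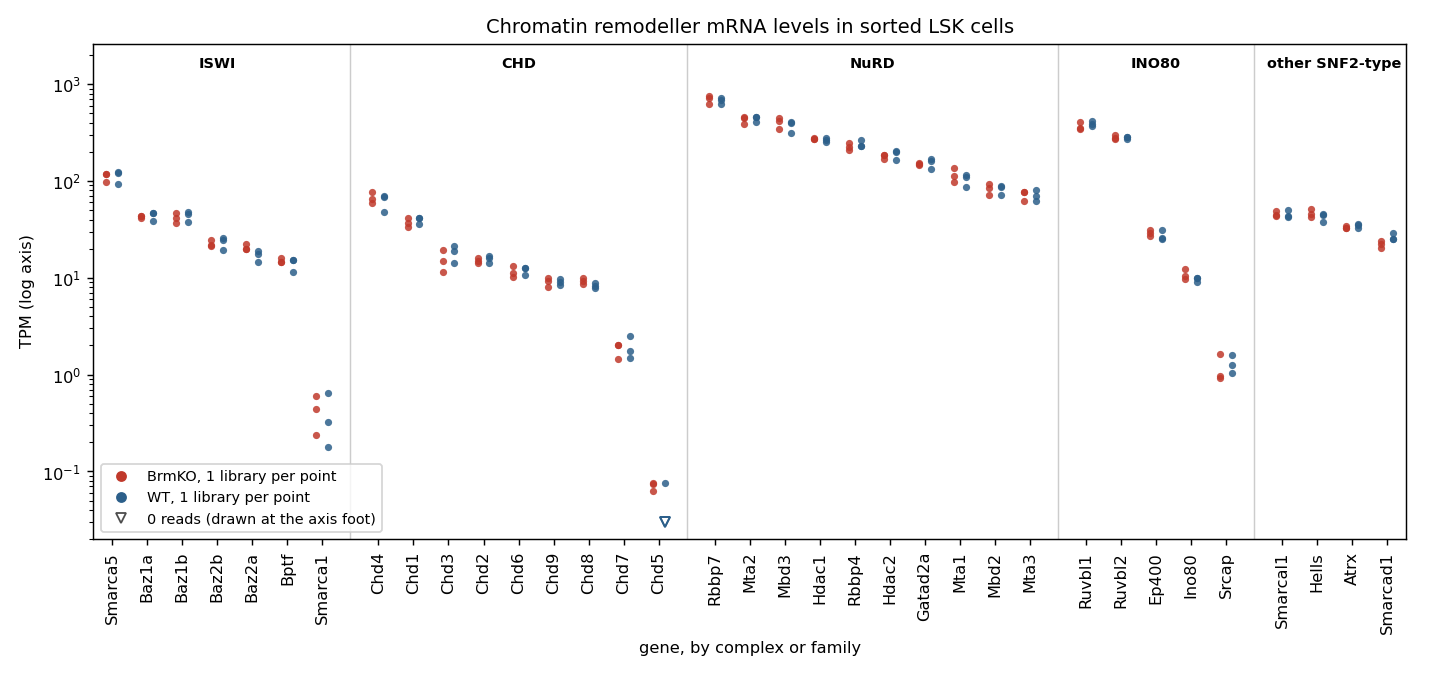
Levels of the 35 genes in TPM on a log axis, grouped by complex or family and ordered within each group by WT level. Each point is 1 library, BrmKO left of WT, and the open triangle marks the WT libraries in which Chd5 had 0 reads. NuRD subunits fill the range from 71.1 to 680 TPM in WT, and the points of the genotypes overlap for most genes.

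The balance of alternative or related genes was read from each gene's share of their summed TPM. Smarca5 made up 99.5% to 99.9% of the ISWI ATPase level over the 6 libraries, and Smarca1 made up the rest. Chd4 made up 76.5% to 83.5% of the level of Chd3, Chd4 and Chd5. Chd1 held 69.1% to 74.4% of its level summed with Chd2. Among Chd6, Chd7, Chd8 and Chd9, which share a domain layout, no gene held more than 39.6%, and Chd7 held the least at 4.42% to 7.86%. Mbd3 held 81.2% to 83.1% against Mbd2, and Mta2 held 68.3% to 72.9% against Mta1 and Mta3. Baz1a, at 32.1% to 36.2%, and Baz1b, at 29.7% to 35.3%, held similar shares of the BAZ level by the summed exon length. With the longest transcript in place of all exons, Baz1a held 22.1% to 25.1% and Baz1b held 37.5% to 44.6%. Hdac1 and Hdac2 were closer than the MBD or MTA genes, with Hdac1 at 56.3% to 62.8%. Ep400 held 68.4% to 73.3% of the level summed over Ep400, Ino80 and Srcap. The longest transcript also moved other shares. Chd1 then held 61% to 67.1%, Mbd3 75.9% to 78.1%, Hdac1 61.2% to 67.5% and Ep400 72% to 76.3%. Chd4, at 77% to 83.9%, and Mta2, at 68.6% to 72.8%, moved little.

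Promoter windows of 4 genes show the sequence setting of the highest and the lowest levels among the ATPases of a family. A window runs from 250 bases before to 50 bases after the start that RefSeq gives on GRCm38.p6, it reads along the gene's own strand, and capitals mark each CG dinucleotide. Smarca5 has 32 CG in chr8:80739410-80739709 on the minus strand, and Smarca1 has 9 in chrX:47892564-47892863, also on the minus strand. Chd4 has 17 in chr6:125095731-125096030 and Chd5 has 32 in chr4:152338401-152338700, both on the plus strand.
Smarca5: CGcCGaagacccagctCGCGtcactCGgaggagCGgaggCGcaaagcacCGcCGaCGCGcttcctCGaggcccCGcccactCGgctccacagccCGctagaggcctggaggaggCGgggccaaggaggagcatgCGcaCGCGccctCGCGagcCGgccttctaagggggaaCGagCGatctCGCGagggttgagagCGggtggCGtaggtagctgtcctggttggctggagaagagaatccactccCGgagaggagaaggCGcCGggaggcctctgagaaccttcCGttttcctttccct
Smarca1: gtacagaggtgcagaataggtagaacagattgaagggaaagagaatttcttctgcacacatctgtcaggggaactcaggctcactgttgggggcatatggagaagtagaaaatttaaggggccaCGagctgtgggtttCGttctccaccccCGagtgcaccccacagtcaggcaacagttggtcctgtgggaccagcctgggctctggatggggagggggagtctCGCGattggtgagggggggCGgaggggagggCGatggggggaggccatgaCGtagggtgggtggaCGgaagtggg
Chd4: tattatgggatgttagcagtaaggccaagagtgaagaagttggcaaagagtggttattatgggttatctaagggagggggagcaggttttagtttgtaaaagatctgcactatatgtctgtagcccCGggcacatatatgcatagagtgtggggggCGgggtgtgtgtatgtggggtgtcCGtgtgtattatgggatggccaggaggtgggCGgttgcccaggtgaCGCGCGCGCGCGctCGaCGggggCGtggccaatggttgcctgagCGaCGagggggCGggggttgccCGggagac
Chd5: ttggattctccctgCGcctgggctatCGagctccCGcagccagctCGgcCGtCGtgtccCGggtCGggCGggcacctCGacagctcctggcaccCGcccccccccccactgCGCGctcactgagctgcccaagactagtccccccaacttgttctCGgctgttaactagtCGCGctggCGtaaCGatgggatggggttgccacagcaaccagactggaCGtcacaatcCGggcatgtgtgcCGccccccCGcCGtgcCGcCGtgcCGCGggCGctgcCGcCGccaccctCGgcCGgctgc
The ISWI gene with more CG was the one with the higher TPM, whereas Chd5 had more CG than Chd4 and a far lower TPM. Windows were found for 27 of the 35 genes, not for Baz1a, Mbd2, Chd2, Mta3, Chd1, Chd7, Hdac1 and Chd3. These 27 held a median of 26 CG, with 5 in Baz2b and 50 in Mta1, against a median of 7 over 27018 genes. The 27018 genes were not limited to those with reads in these cells. Comparisons with them therefore do not set the remodeller genes apart from other genes with reads here. Each motif was searched on both strands. The GC box GGGCGG was present in 24 of the 27 windows (88.9%), against 35.9% of all genes' windows. CCAAT was present in 15 of the 27 (55.6%), against 37.9% of all. The longer motifs were rare here, with CCGGAAG in 2 windows (7.41%, against 9.12% of all), GCATGCGC in the Smarca5 window only (3.7%, against 2.81%) and AAGATGGC in the Bptf window only (3.7%, against 2.88%). No motif is contained in another, and most of them hold a CG of their own. A match describes the letters of a window and not a site in use.

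Between the genotypes, none of the 34 tested genes passed the threshold, with a smallest adjusted p of 0.795 (edgeR). Over all genes, 0.14% passed. At an unadjusted p under 0.05, 1 gene was higher in BrmKO (Baz2a, against 3.14% of all genes tested) and 1 was lower (Smarcad1, against 2.71%). The same pair were the only 2 whose BrmKO and WT libraries did not overlap, against 11.1% of all genes. The 34 log2 fold changes ran from -0.26 to 0.28 with a median of -0.02, against a median of -0.01 over all genes, and 16 lay above 0 and 18 below. Without both libraries numbered 3, none of the 34 passed either, and those with an unadjusted p under 0.05 were Chd8 and Smarcad1 (edgeR).

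The size of difference that the data still allow was narrow for most of these genes. For 30 of 34 (88.2%), the 95% interval of the fold change lay inside 1.5-fold in either direction, against 54.7% of all genes tested. The exceptions were Chd3, Chd7, Srcap and Smarca1. The 34 genes also had higher levels, at a median of 95.9 CPM against 22.2 CPM over all genes, and their spread was smaller, with a median coefficient of variation over the 6 libraries of 9.61% against 14.5%. All 10 NuRD subunits lay inside the 1.5-fold bounds, with 6 above 0 and 4 below. So did the 4 other SNF2-type ATPases, 6 of 7 ISWI genes, 6 of 8 tested CHD genes and 4 of 5 INO80 genes.

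**Figure D3:**
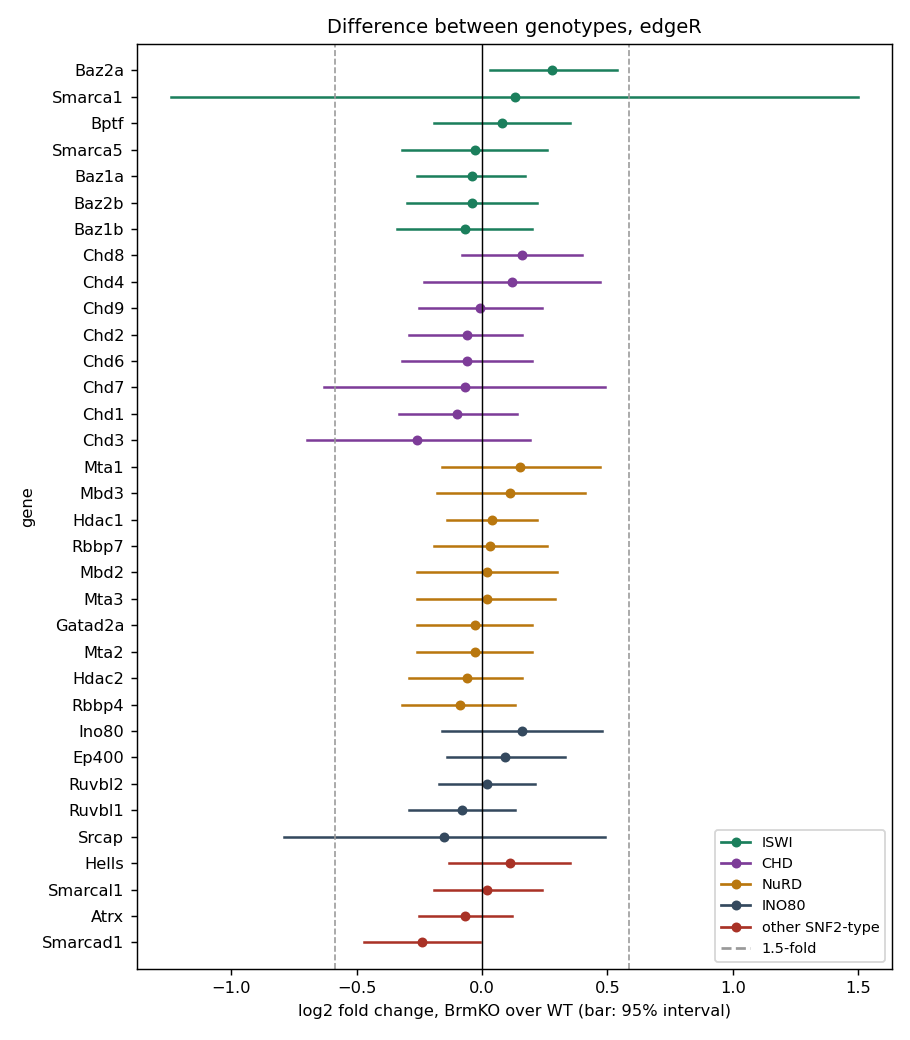
Log2 fold change of BrmKO over WT for the 34 tested genes, with bars for the 95% interval and colours for the complex or family. Dashed lines mark 1.5-fold; the intervals of Chd3, Chd7, Srcap and Smarca1 cross at least one of them, and those of Baz2a and Smarcad1 leave out 0.

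Among the ISWI ATPases, SMARCA5 is the broadly expressed motor that pairs with the BAZ subunits. Smarca5 had 259, 261 and 212 CPM in BrmKO and 271, 269 and 208 CPM in WT, a log2 fold change of -0.03 ± 0.13 with a 95% interval of -0.32 to 0.26 (edgeR, adjusted p = 0.999). Replicate 3 was the lowest library in both genotypes, and the groups overlapped throughout. Smarca5 has 6 processed pseudogenes that match it at 96.6% to 98.1% identity, each with at most 68 reads summed over a genotype against 22547 reads of Smarca5 in BrmKO and 24462 in WT, and reads that fit a copy equally well are not in its count. SMARCA1 is the related motor of NURF. Smarca1 had 31, 22 and 14 reads in BrmKO and 41, 10 and 16 reads in WT, or 1.04, 0.767 and 0.407 CPM in BrmKO and 1.13, 0.308 and 0.563 CPM in WT. The values overlapped across their whole range, and at this depth the 95% interval of the fold change, 0.424 to 2.82, was too wide to show a difference of 1.5-fold or 2-fold (log2 fold change 0.13 ± 0.61, edgeR, adjusted p = 0.999).

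Baz2a encodes TIP5, the subunit that directs the nucleolar complex NoRC to silent ribosomal RNA genes. Its levels were 67.8, 60.9 and 60.3 CPM in BrmKO and 54.4, 56.2 and 44.7 CPM in WT, with a mean of 63 ± 4.14 CPM in BrmKO and 51.8 ± 6.22 CPM in WT (SD, n = 3 each). All 3 BrmKO libraries lay above all 3 WT libraries, with WT replicate 3 the lowest. The log2 fold change was 0.28 ± 0.11, with a 95% interval of 0.03 to 0.54 (edgeR, adjusted p = 0.795). As a share of the 4 BAZ genes' summed TPM, Baz2a held 16.6%, 15.9% and 16% in BrmKO and 13.7%, 13.5% and 12.6% in WT. That share does not depend on how libraries are scaled. It was free of overlap, but it uses the same Baz2a reads and is not separate support. The unadjusted p was no longer under 0.05 when BrmKO replicate 1, BrmKO replicate 2, WT replicate 3, or both libraries numbered 3 were left out. The other BAZ genes and Bptf, the histone-reading subunit of NURF, had log2 fold changes between -0.07 and 0.08, with overlapping libraries. Baz1a, of the ACF and CHRAC spacing complexes, averaged 86.4 ± 1.31 CPM in BrmKO and 89.1 ± 9.27 CPM in WT. Baz1b, of the WICH complex, averaged 162 ± 20.1 CPM in BrmKO and 170 ± 19 CPM in WT. Baz2b averaged 113 ± 7.55 CPM in BrmKO and 116 ± 16.9 CPM in WT, and Bptf averaged 59.5 ± 3.38 CPM in BrmKO and 56.3 ± 8.12 CPM in WT (SD, n = 3 each).

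CHD3 and CHD4 are the alternative motors of NuRD. Chd4 had 175, 150 and 133 CPM in BrmKO and 159, 155 and 109 CPM in WT, a log2 fold change of 0.12 ± 0.15 (edgeR, adjusted p = 0.999). Chd3 had 45.8, 36.4 and 27.6 CPM in BrmKO and 51.6, 44.9 and 34.3 CPM in WT, a log2 fold change of -0.26 ± 0.20 with a 95% interval of -0.70 to 0.19 (edgeR, adjusted p = 0.999). Both genes overlapped between the genotypes, and for both, replicate 3 was the lowest library of its genotype. The log2 fold change of Chd3 was the lowest of the 34 with all libraries, but it ran from -0.45 without BrmKO replicate 1 to -0.09 without BrmKO replicate 3. It was -0.40 without WT replicate 3 and -0.11 without WT replicate 1. Without BrmKO replicate 3, Srcap (-0.45) and Smarcad1 (-0.30) were lower. Chd3 had a coefficient of variation of 22.1%, the highest of the tested genes after Smarca1 and Srcap.

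The remaining CHD genes overlapped between genotypes as well. CHD8 binds beta-catenin and is known from autism genetics; Chd8 had 46.7, 44.4 and 39.7 CPM in BrmKO and 38.6, 36.5 and 41.9 CPM in WT, with BrmKO replicate 3 below WT replicate 3 (log2 fold change 0.16 ± 0.11, edgeR, adjusted p = 0.982). Chd7, mutated in CHARGE syndrome, was low, at 7.79, 7.98 and 5.67 CPM in BrmKO and 6.85, 9.78 and 5.8 CPM in WT, and its 95% interval of -0.63 to 0.49 on the log2 scale was the widest of the CHD genes. Chd1, which binds methylated histone tails at active genes, averaged 91.9 ± 9.83 CPM in BrmKO and 98.3 ± 7.41 CPM in WT (SD, n = 3 each). Its relative Chd2 averaged 61 ± 3.55 CPM in BrmKO and 63.7 ± 4.97 CPM in WT. The log2 fold changes of Chd1, Chd2, Chd6 and Chd9 lay between -0.10 and -0.01. Chd6 averaged 62.6 ± 7.19 CPM in BrmKO and 65.3 ± 5.95 CPM in WT, and Chd9 averaged 59.4 ± 6.07 CPM in BrmKO and 59.7 ± 4.77 CPM in WT. Chd5 was left out of the test for low counts. It had 6, 5 and 7 reads in BrmKO and 0, 0 and 6 reads in WT. With 3 reads as the floor, a count of 0 still allows 0.0823 CPM in WT replicate 1 and 0.0909 CPM in WT replicate 2, against 0.174 to 0.204 CPM in BrmKO and 0.211 CPM in WT replicate 3.

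None of the 10 NuRD subunits approached the threshold. MTA proteins form the scaffold of the deacetylase core. Mta2 had 533, 530 and 446 CPM in BrmKO and 538, 530 and 473 CPM in WT (log2 fold change -0.03 ± 0.10). Mta1 had 120, 99.9 and 86.2 CPM in BrmKO and 96.6, 101 and 77.7 CPM in WT (log2 fold change 0.15 ± 0.14). Mta3 had 116, 117 and 93.3 CPM in BrmKO and 122, 105 and 95.2 CPM in WT (log2 fold change 0.02 ± 0.12). In all 3 MTA genes the libraries overlapped and replicate 3 was the lowest of its genotype, and the adjusted p was 0.999 by edgeR.

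MBD2, which binds methylated DNA, and MBD3, which binds it poorly, occupy the same place in NuRD. Mbd3 had 235, 254 and 194 CPM in BrmKO and 233, 221 and 177 CPM in WT (log2 fold change 0.11 ± 0.13). Mbd2 had 77.4, 86.6 and 65.5 CPM in BrmKO and 80.2, 79.4 and 66.2 CPM in WT (log2 fold change 0.02 ± 0.12). Here too replicate 3 was lowest in both genotypes, with overlap and an adjusted p of 0.999 for each gene (edgeR). Gatad2a, which links the MBD protein to the CHD motor, averaged 238 ± 8.74 CPM in BrmKO and 243 ± 28.4 CPM in WT (SD, n = 3 each, log2 fold change -0.03 ± 0.10).

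The deacetylases and the histone chaperones are shared with other corepressor complexes. Hdac1 had 270, 268 and 265 CPM in BrmKO and 248, 256 and 275 CPM in WT (log2 fold change 0.04 ± 0.08), with a coefficient of variation of 3.75% over the 6 libraries, the smallest of the 35 genes. Hdac2 had 237, 239 and 211 CPM in BrmKO and 251, 254 and 212 CPM in WT (log2 fold change -0.06 ± 0.10). Both histone deacetylase genes overlapped between the genotypes. Rbbp4 had 557, 524 and 612 CPM in BrmKO and 577, 563 and 668 CPM in WT (log2 fold change -0.09 ± 0.10). Rbbp7 had 590, 623 and 510 CPM in BrmKO and 595, 565 and 526 CPM in WT (log2 fold change 0.03 ± 0.10). Replicate 3 was the highest of its genotype for Rbbp4 and the lowest for Rbbp7, and the adjusted p was 0.999 for all 4 genes (edgeR). Hdac1 and Rbbp7, like Ruvbl1 and Ep400, have processed pseudogenes at 95% identity or more, the most read of which had 217 reads in BrmKO and 228 in WT against 24885 of Hdac1 in BrmKO and 25146 in WT. Mta2 lies at chr19:8941875-8952303 and Smarca2 at chr19:26605050-26778322 on GRCm38.

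In the INO80 family, INO80 and SRCAP are motors of complexes that remove and deposit H2A.Z, and EP400 is the motor of the TIP60 complex. Ino80 had 18.6, 24.1 and 19.9 CPM in BrmKO and 19.3, 19.2 and 17.6 CPM in WT, a log2 fold change of 0.16 ± 0.14 (edgeR, adjusted p = 0.999). BrmKO replicate 2 stood highest and BrmKO replicate 1 lay among the WT libraries. Srcap had 4.08, 4.42 and 7.18 CPM in BrmKO and 4.69, 5.63 and 7.14 CPM in WT, with replicate 3 highest in both genotypes (log2 fold change -0.15 ± 0.28, 95% interval -0.79 to 0.49). Exons of other genes overlap 65.0% of the Srcap exon length, and HTSeq leaves out reads that 2 genes could claim, so its level may be too low. The same holds for 19.3% of the Chd2, 18.1% of the Rbbp4 and 15.4% of the Ruvbl2 exon length, and for under 10% of any other of the 35 genes. Ep400 averaged 115 ± 8.38 CPM in BrmKO and 108 ± 11.9 CPM in WT (SD, n = 3 each, log2 fold change 0.09 ± 0.10).

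RUVBL1 and RUVBL2 form mixed rings that all these INO80-family complexes carry. Ruvbl1 had 191, 219 and 185 CPM in BrmKO and 209, 221 and 200 CPM in WT (log2 fold change -0.08 ± 0.09). Ruvbl2 had 227, 250 and 223 CPM in BrmKO and 223, 231 and 237 CPM in WT (log2 fold change 0.02 ± 0.08). Both overlapped between the genotypes, each with an adjusted p of 0.999 (edgeR). The log2 intervals were -0.29 to 0.13 for Ruvbl1 and -0.17 to 0.21 for Ruvbl2.

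Smarcad1 encodes an ATPase that keeps heterochromatin marks through replication and promotes DNA end resection. It had 76.6, 85.3 and 89.9 CPM in BrmKO and 94.6, 93.1 and 110 CPM in WT, with a mean of 83.9 ± 6.74 CPM in BrmKO and 99.3 ± 9.4 CPM in WT (SD, n = 3 each). All BrmKO libraries lay below all WT libraries, and the nearest values were 89.9 CPM in BrmKO replicate 3 and 93.1 CPM in WT replicate 2. The log2 fold change was -0.24 ± 0.10, with a 95% interval of -0.47 to -0.01 (edgeR, adjusted p = 0.817). With upper-quartile scaling, or leaving out BrmKO replicate 1, BrmKO replicate 2 or WT replicate 3, its unadjusted p was not under 0.05.

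HELLS supports DNA methylation at repeats and is known from dividing cells. Hells had 92.3, 105 and 86.6 CPM in BrmKO and 91.3, 92.9 and 78.2 CPM in WT (log2 fold change 0.11 ± 0.11, edgeR, adjusted p = 0.999), with replicate 3 the lowest of each genotype. The gene lies at chr19:38930915-38971051 on GRCm38, on the distal side of Smarca2. ATRX deposits histone H3.3 in heterochromatin together with DAXX, and Atrx averaged 205 ± 6.12 CPM in BrmKO and 215 ± 9.62 CPM in WT (SD, n = 3 each, log2 fold change -0.07 ± 0.08). SMARCAL1 reanneals DNA at stalled replication forks. Smarcal1 had 79.2, 73.9 and 70.9 CPM in BrmKO and 70.8, 80.1 and 69.8 CPM in WT (log2 fold change 0.02 ± 0.10, edgeR, adjusted p = 0.999). Hells, Atrx and Smarcal1 all overlapped between the genotypes.

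The balance between alternative subunits was compared as the ratio of their reads per kilobase within each library, which needs no scaling between libraries. Across 8 ratios, 2 were free of overlap between the genotypes, and both had the smallest two-sided p that an exact permutation of 3 against 3 libraries allows, 0.1 (0.4 adjusted over the 8 ratios). Chd3 over Chd4 was 0.248, 0.231 and 0.196 in BrmKO and 0.308, 0.276 and 0.3 in WT, or 0.224 in BrmKO and 0.294 in WT as geometric means. All BrmKO ratios were lower than all WT ratios, by 0.39 on the log2 scale on average, and leaving out any 1 library kept the difference between -0.47 and -0.30. Without both libraries numbered 3 it was -0.28. In the libraries numbered 3 the ratio was the lowest of the BrmKO values and the middle one of the WT values. Mbd2 over Mbd3 was 0.204, 0.21 and 0.209 in BrmKO and 0.213, 0.222 and 0.231 in WT. Its BrmKO values were the lower ones, by 0.09 on the log2 scale.

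The other 6 ratios overlapped. Mta1 over Mta2 was 0.297, 0.248 and 0.255 in BrmKO and 0.237, 0.25 and 0.217 in WT, with 2 of 3 BrmKO values above all WT values (difference 0.18 on the log2 scale, exact permutation p = 0.2). Mta3 over Mta2 averaged 0.166 in BrmKO and 0.16 in WT. Hdac1 over Hdac2 averaged 1.52 in BrmKO and 1.42 in WT, and Rbbp7 over Rbbp4 averaged 3.05 in BrmKO and 2.81 in WT, in each case with both libraries numbered 3 apart from the other libraries of their genotype. Ruvbl1 over Ruvbl2 averaged 1.3 in BrmKO and 1.39 in WT. Smarca1 over Smarca5 averaged 0.00368 in BrmKO and 0.00308 in WT, with the WT libraries between 0.00153 and 0.00537. The averages are geometric means, and the exact permutation p for these 5 ratios lay between 0.3 and 0.7. The level of a ratio depends on the length used, whereas its log2 difference between the genotypes does not. With the longest transcript's length, Rbbp7 over Rbbp4 averaged 2.11 in BrmKO and 1.94 in WT. Hdac1 over Hdac2 then averaged 1.87 in BrmKO and 1.74 in WT, and Mbd2 over Mbd3 0.286 in BrmKO and 0.305 in WT.

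**Figure D4:**
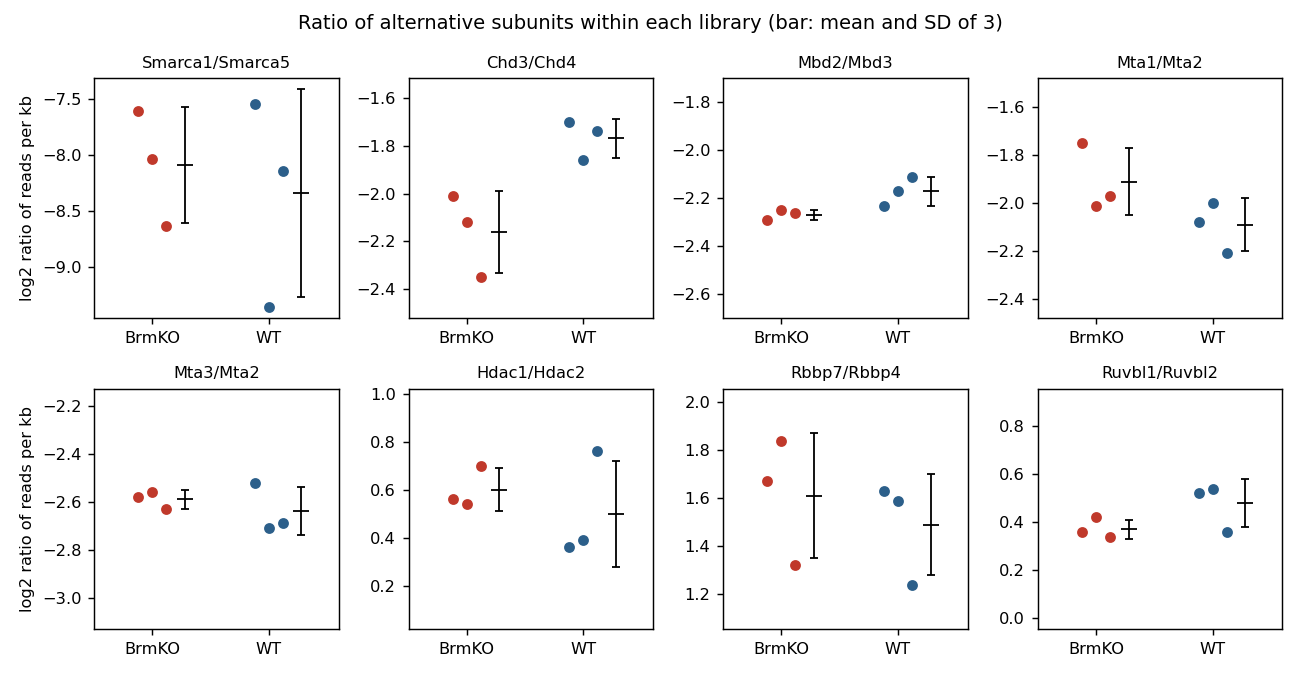
Log2 ratio of reads per kilobase for 8 combinations of alternative subunits, 1 point per library, BrmKO left of WT, with the mean and SD of 3 libraries as black bars. The vertical axes differ between panels. The Chd3/Chd4 panel shows BrmKO between 0.196 and 0.248 and WT between 0.276 and 0.308 as linear ratios, with no overlap.

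Levels of cell type markers also differed between the libraries, and in bulk RNA fewer cells of a type and less RNA per cell cannot be told apart. Summed platelet and megakaryocyte markers were 446 to 617 CPM in BrmKO and 673 to 898 CPM in WT, with 0 of the 7 tested higher in BrmKO, and Pf4 passed the test (edgeR, adjusted p = 0.0391). B lineage markers summed to 619 to 699 CPM in BrmKO and 695 to 1366 CPM in WT, monocyte and macrophage markers to 137 to 170 CPM in BrmKO and 170 to 247 CPM in WT. Higher in BrmKO were 0 of the 6 B lineage markers and 2 of the 6 monocyte and macrophage markers, and none passed. Dendritic cell and MHC class II genes summed to 545 to 875 CPM in BrmKO and 183 to 557 CPM in WT. Of these 6 genes, 4 were higher in BrmKO, namely H2-Ab1, H2-Aa, H2-Eb1 and Cd74, and none passed. Siglech and Itgax were lower, with overlap (log2 fold changes -0.34 and -0.11, edgeR). Stromal and endothelial genes summed to 25.7 to 151 CPM in BrmKO and 46.5 to 245 CPM in WT. Cycling genes summed to 1997 to 2368 CPM in BrmKO and 2035 to 2259 CPM in WT, with 6 of the 8 higher in BrmKO and none passing. Within the stromal and endothelial list, 2 of 8 genes were higher in BrmKO, Col1a1 and Col1a2, with overlap. Lepr, Pdgfra, Kdr and Plvap were lower without overlap, and none of the list passed. Pdgfra had 0 reads in each BrmKO library and 27, 19 and 21 reads in WT (edgeR, adjusted p = 0.0849). The platelet and lineage sums and these 4 genes were free of overlap, as were Baz2a, Smarcad1, the Chd3 to Chd4 ratio and 11.1% of all genes tested. Of the 5 lineage antigens tested, 2 were higher in BrmKO, Cd4 without overlap and Cd8a with overlap. Other tested markers without overlap were Flt3, H2-Ab1 and Cd74, all higher in BrmKO. Pf4, Itgb3, Selp, Treml1, Ighm, Vpreb1, Ccr2 and Vcam1 were lower without overlap. The part of the markers in the differences of Baz2a, Smarcad1 and the ratio was not tested.

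A further 56 genes in 7 lists, namely other subunits of these complexes, the H2A.Z histones with a chaperone, partners of ATRX and HELLS, and 12 other SNF2-family ATPases, were described beside them, and none passed (edgeR, smallest adjusted p = 0.635). Their median log2 fold change was 0.00, and 51 of 56 intervals (91.1%) lay inside 1.5-fold, against 54.7% of all genes tested. At an unadjusted p under 0.05, 0 were higher (3.14% of all genes tested) and 3 were lower (2.71% of all), namely Epc1 of the subunits and Btaf1 and Rad54l2 of the other ATPases. Btaf1, an ATPase that removes TBP from DNA, had 84.6, 95.3 and 77 CPM in BrmKO and 92, 122 and 133 CPM in WT (log2 fold change -0.43 ± 0.14, edgeR, adjusted p = 0.635). Its highest BrmKO value exceeded its lowest WT value. Btaf1 lies at chr19:36926079-37012752, between Smarca2 and Hells. Epc1, of the TIP60 complex that EP400 drives, averaged 30.2 ± 2.65 CPM in BrmKO and 39.3 ± 8.35 CPM in WT (SD, n = 3 each, adjusted p = 0.802 by edgeR). Rad54l2, a SNF2-type ATPase, averaged 13.3 ± 3.1 CPM in BrmKO and 18.8 ± 4.46 CPM in WT (adjusted p = 0.828 by edgeR).

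Rsf1, a partner of SMARCA5, was the only one of the 56 whose genotypes did not overlap, against 11.1% of all genes tested, at 40.6, 37.8 and 37 CPM in BrmKO and 43.6, 41.6 and 40.9 CPM in WT (log2 fold change -0.13 ± 0.10). Cecr2, another ISWI partner, had 1.57, 2.93 and 1.02 CPM in BrmKO and 0.773, 1.29 and 0.563 CPM in WT, a log2 fold change of 1.06 ± 0.51 with overlapping libraries (edgeR, adjusted p = 0.871). Daxx, the partner of ATRX, had a log2 fold change of 0.11 ± 0.11, and Cdca7, the partner of HELLS, one of 0.02 ± 0.09. The genes of H2A.Z and its chaperone, H2afz, H2afv and Anp32e, had log2 fold changes between -0.03 and 0.02. Smarca4, which encodes the SWI/SNF motor that remains without BRM, had 180 ± 21.3 TPM in BrmKO and 167 ± 23.8 TPM in WT (log2 fold change 0.11 ± 0.13, edgeR, adjusted p = 0.999). By comparison Smarca5 had 111 ± 11.8 TPM in BrmKO and 113 ± 17.2 TPM in WT, and Chd4 67.2 ± 9.27 TPM in BrmKO and 62 ± 12.7 TPM in WT (SD, n = 3 each).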

How the data were processed

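Per the labels' protocols, libraries of polyadenylated RNA from sorted LSK cells came from a SMART-Seq v4 kit, which marks neither strand nor molecule, so floors cover counting error only. The authors deposited raw read counts per Ensembl gene, with a file for each library. STAR, HTSeq and DESeq2 were used with build GRCm38, per the submitters' processing notes; the sources used here do not give versions, annotation release or strand setting. Rows that name no gene (18.9% to 22.8% of the total) were left out.

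BrmKO was tested against WT (3 libraries each) with edgeR 4.0.16 (R 4.3.3), TMM factors and filterByExpr. Exon lengths came from GENCODE M21. Ratios used a pseudocount of 0.5 reads. Copies were searched with minimap2 2.31, at 95% identity over 500 bases or more. Where RefSeq lists several promoter windows, the first was used. No 2 libraries agreed within sampling noise. The mice are separate per the labels. Alternatives were DESeq2 1.42.0, limma-voom 3.58.1, other scalings, no low-count filter, a replicate block, and libraries left out.

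The members and lists were chosen with earlier results of these data known. Values in every library are given for the 8 members with the smallest p, the members of each ratio, and the highest and lowest of each group. Up to 3 genes per partner list are named, some with a mean or a fold change only. No gene of the NuRD and INO80 partner lists is named.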

Additional observations from a re-analysis of the deposited data

How the results depend on the processing

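None of the 34 genes passed under any of the 13 alternatives. The number with an unadjusted p under 0.05 was 2, and it was 1 with upper-quartile factors and 0 to 2 with 1 library left out. With the replicate block it was 3 (Baz2a, Chd3 and Smarcad1; 25 of all genes passed, against 22). Deviations from the genotype means correlated at 0.0518, 0.00775 and 0.194 for libraries of the same number. For libraries of different numbers they correlated at -0.195 to 0.168. Deviations from a mean of 3 libraries are tied to each other, so these values cannot decide whether the numbers pair the mice. With DESeq2, 142 of all genes passed and with no low-count filter 58, against 22 by edgeR, and with 1 library left out 6 to 36. The median level in WT moved to 48.4 TPM with the longest transcript's length in place of the exon union.

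Log2 fold changes did not reverse sign in 410 of 442 values, where a value that rounds to 0 counted as not reversed. With 1 library left out, those that changed sign ran from -0.13 to 0.01 for Baz1a, -0.16 to 0.02 for Baz1b, -0.16 to 0.03 for Baz2b, -0.04 to 0.14 for Bptf, -0.04 to 0.22 for Chd4, -0.15 to 0.01 for Chd6, -0.22 to 0.18 for Chd7, -0.08 to 0.07 for Chd9, -0.12 to 0.04 for Gatad2a, -0.08 to 0.12 for Mbd2, -0.09 to 0.05 for Mta2, -0.06 to 0.12 for Mta3, -0.03 to 0.11 for Rbbp7, -0.04 to 0.05 for Ruvbl2, -0.21 to 0.76 for Smarca1, -0.15 to 0.06 for Smarca5, -0.02 to 0.09 for Smarcal1 and -0.45 to 0.02 for Srcap. Without both libraries numbered 3, Ep400 was at -0.01. The difference in the Smarca1 to Smarca5 ratio ran from -0.25 to 0.66 with 1 library left out. The cause was not tested.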
